A study of Mus musculus with 24 samples.

Results

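Serpins, Kunitz-type inhibitors of the Spint group and cystatins are protease inhibitors and their relatives. They were taken here as every gene whose symbol on the array starts with Serpin, or with Spint or Cst followed by a digit. The rule gave 67 genes, of 17888 named genes on the array, and 82 probes: 56 serpin genes, 3 Kunitz genes and 8 cystatin genes. No measured value entered the choice.

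Mammary gland RNA of female mice was profiled on Illumina bead arrays, with 1 array for each sample. The wild-type mice (WT) carried SNAI2+/+, and the null mice, labelled SNAI2 null, were homozygous for a LacZ allele of Snai2, the gene of the transcriptional repressor Slug. Luminal, basal and stromal cells sorted by CD49f and Epcam, and unsorted cells, were measured in both genotypes, on 3 arrays in each of the 8 groups and 24 in all. No age and no treatment is given in the labels, the null cells carry the same allele in every population, and no label says whether a group's samples are different animals. The p-values therefore cover the scatter among these samples, which may be technical. In bulk RNA of this kind, fewer cells of a type and less RNA per cell cannot be told apart.

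A serpin exposes a loop that a target protease cuts, and the serpin then snaps into a new fold with the protease bound to it. Several members of the family inhibit no protease and serve as chaperones or signals. Kunitz inhibitors block trypsin-like enzymes reversibly, and in epithelia the products of Spint1 and Spint2 hold in check matriptase and the activators of hepatocyte growth factor. Cystatins bind the papain-like cysteine proteases, among them the cathepsins of the lysosome.

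Median raw intensity lay between 93.6 and 143.7 per array, and 12634 to 15825 of the 25697 probes were detected. The level of Snai2 was not analysed here. The sort was checked with marker lists. The 9 basal markers measured (Krt5, Krt14, Trp63 and others) had a mean log2 level of 10.4 in basal, 8.04 in luminal and 6.54 in stromal WT cells, and the 9 luminal markers averaged 9.92 in WT luminal cells against 7.62 and 7.14 in WT basal and stromal cells. The arrays also fell on 2 sides of the third principal component (9.79% of the variance) that no label gives. Its positive side held 11 arrays: WT replicates 1 and 2 throughout, and replicate 1 of each sorted null population. The negative side held 13, WT replicate 3 throughout, replicates 2 and 3 of each sorted null population and all null unsorted arrays.

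Of the 67 genes, 34 had a probe detected on at least 3 arrays at a detection p below 0.05 and were tested: 30 serpins, Spint1, Spint2 and the cystatins Cst3 and Cst11. Only 10 were detected on all 24 arrays. The 33 not tested were Cst6, Cst7, Cst8, Cst9, Cst10, Cst13, Spint4, Serpina11, Serpina12, Serpina1c, Serpina1e, Serpina1f, Serpina3b, Serpina3k, Serpina3m, Serpina4-ps1, Serpina5, Serpina6, Serpina7, Serpina9, Serpinb1b, Serpinb1c, Serpinb3a, Serpinb3b, Serpinb3c, Serpinb3d, Serpinb7, Serpinb9b, Serpinb9c, Serpinb9g, Serpinc1, Serpind1 and Serpini2. Among them are the genes of antithrombin (Serpinc1), heparin cofactor (Serpind1) and the corticosteroid carrier of blood (Serpina6). A gene may pass the detection filter through the group where it is high, so counts among the 34 are read only against the same count over all 12549 genes tested.

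**Figure D1:**
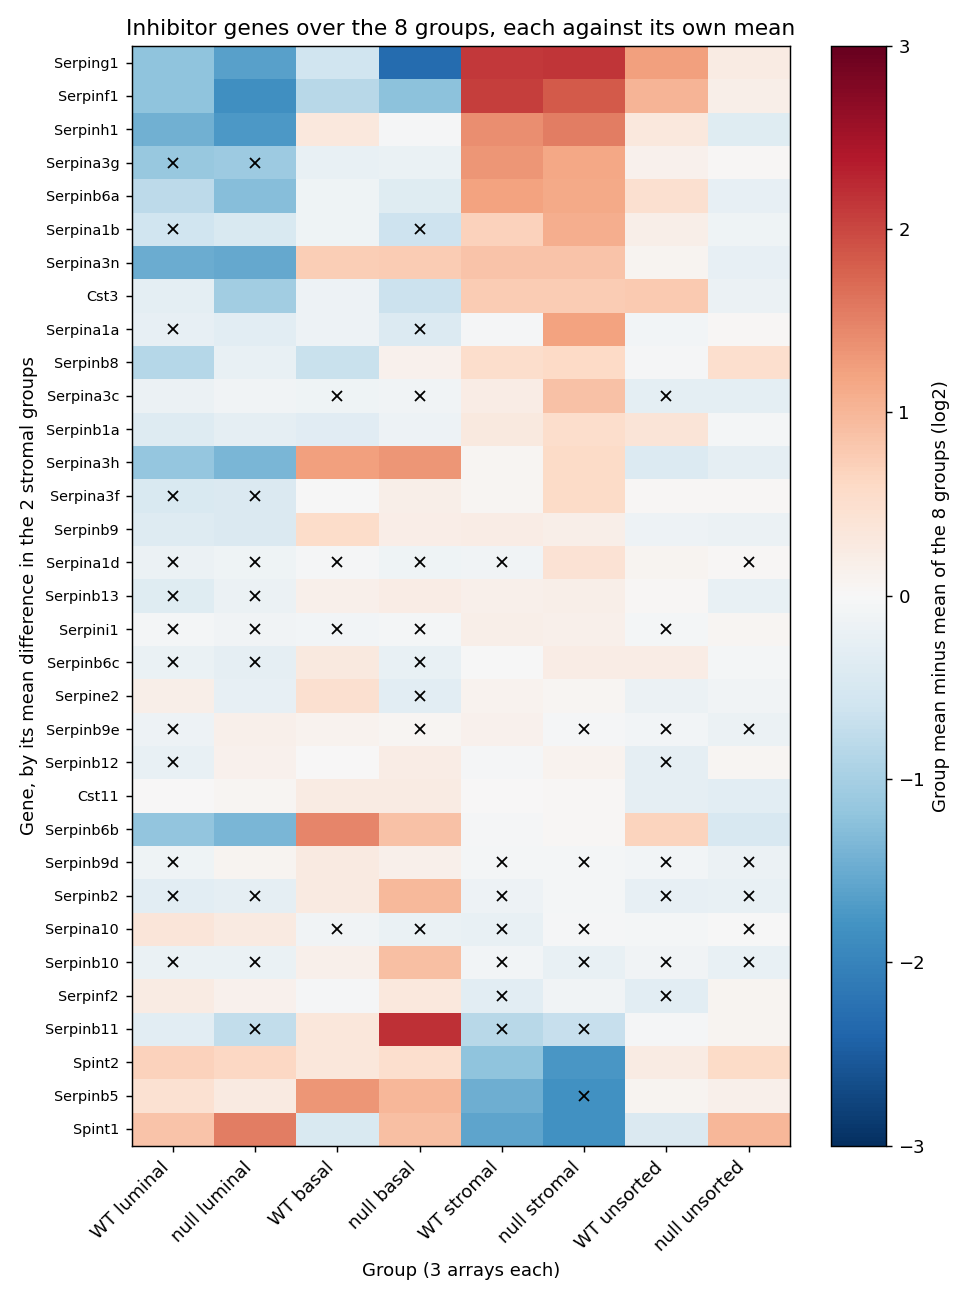
The tested inhibitor genes (33 rows) in the 8 groups (columns); colour gives the group mean minus the gene's own mean over the 8 groups, in log2 units, and crosses mark groups where the probe was detected on 0 arrays. Serping1, Serpinf1 and Serpinh1 head the rows as the genes highest in stromal cells, and Spint2, Serpinb5 and Spint1 end them as the lowest there.

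The Kunitz genes Spint1 and Spint2 were higher in epithelial than in stromal cells of both genotypes, and only Spint1 was called between the epithelial populations or between genotypes. Spint1 (hepatocyte growth factor activator inhibitor type 1) lies on mouse chromosome 2 and Spint2 (type 2) on chromosome 7. The 250 bases before the start of each are shown because both are epithelial genes and Slug is known to bind the E-box CACCTG, which reads CAGGTG on the other strand. Capitals mark that motif on either strand (RefSeq, GRCm38.p6, each 5′ to 3′ on the gene's strand). Spint1 is at chr2:119237110-119237359 on the plus strand and Spint2 at chr7:29281978-29282227 on the minus strand.
Spint1: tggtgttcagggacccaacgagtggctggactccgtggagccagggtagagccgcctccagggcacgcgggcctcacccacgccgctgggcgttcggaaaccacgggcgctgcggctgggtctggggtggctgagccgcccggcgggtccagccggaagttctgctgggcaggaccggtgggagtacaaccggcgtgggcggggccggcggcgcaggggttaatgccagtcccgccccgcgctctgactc
Spint2: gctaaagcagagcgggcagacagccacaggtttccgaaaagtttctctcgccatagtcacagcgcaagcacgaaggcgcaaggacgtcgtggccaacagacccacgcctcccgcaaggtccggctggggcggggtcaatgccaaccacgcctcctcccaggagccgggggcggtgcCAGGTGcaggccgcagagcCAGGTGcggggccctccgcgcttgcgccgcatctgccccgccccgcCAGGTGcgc

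The Spint2 window held 3 matches and the Spint1 window 0. Over all 32851 such windows in the RefSeq table, 17.2% held at least 1 match, and of the 31 windows found for 27 of the 34 tested genes 7 did (22.6%). A match is a run of letters and no record of binding.

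Spint1 read 7.79, 7.36 and 7.67 on the WT luminal arrays, 6.18, 6.71 and 5.996 on the WT basal arrays and 5.003, 5.47 and 4.99 on the WT stromal arrays (log2 intensity, replicates 1, 2 and 3). No WT luminal array fell as low as a WT basal array, and no WT basal array as low as a stromal one. Basal cells were lower than luminal cells by a log2 change of -1.31 ± 0.32 (SE, adjusted p = 0.00654, n = 3 per group), and luminal cells were 2.45 ± 0.32 higher than stromal cells (adjusted p = 7.65e-06). Basal cells were 1.14 ± 0.32 higher than stromal cells (adjusted p = 0.0146), a call lost without WT basal replicate 2 (0.0819) and without WT stromal replicate 1 (0.0551). In null mice the luminal arrays read 7.86, 8.21 and 8.74, the basal arrays 8.14, 7.30 and 7.51 and the stromal arrays 4.73, 4.82 and 5.21. The null epithelial groups overlapped each other and stood clear of the stromal arrays, with log2 changes over stromal cells of 3.35 ± 0.32 in luminal and 2.73 ± 0.32 in basal cells (adjusted p = 1.84e-07 and 1.59e-06).

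Spint2 read 11.29, 11.55 and 11.33 in WT luminal cells, 11.11, 11.20 and 10.83 in WT basal cells and 9.62, 10.39 and 8.46 in WT stromal cells. The epithelial arrays were close to each other, and the stromal arrays were all lower and spread over nearly 2 units of log2. Luminal cells exceeded stromal cells by 1.90 ± 0.38 in WT and 2.36 ± 0.38 in null mice (adjusted p = 0.000788 and 7.59e-05). Basal cells exceeded them by 1.56 ± 0.38 and 2.23 ± 0.38 (adjusted p = 0.00589 and 0.00016). A second, separate Spint2 probe, detected on 8 arrays, gave smaller differences, 0.68 ± 0.30 in WT and 0.99 ± 0.30 in null luminal over stromal cells. Of these only the null one passed in the limma fit of all probes (adjusted p = 0.122 and 0.0212). For basal over stromal cells the second probe gave 0.31 ± 0.30 in WT and 0.75 ± 0.30 in null mice. Neither passed in that fit (adjusted p = 0.576 and 0.0924). Stromal cells also held epithelial markers: the luminal list averaged 7.77 on WT stromal replicate 2 against 6.52 on replicate 3, and Spint2 was highest on replicate 2 and lowest on replicate 3 of these arrays. The part of those cells in the stromal level was not tested.

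A list of 16 measured genes around matriptase and the activation of hepatocyte growth factor was followed. It holds receptors and other partners as well as proteases and the growth factor. In WT basal against luminal cells 2 of the 16 were higher and 9 lower (7.48% and 7.69% of all genes), with a median log2 change of -1.15 where that of all genes was -0.01. The genes with the largest changes were Tmprss2 and Tmprss13, membrane serine proteases (-4.14 ± 0.59 and -3.12 ± 0.47), Hgf, the growth factor itself (3.42 ± 0.43), and Klk11, a kallikrein (-2.33 ± 0.29). St14, which encodes matriptase, was lower in basal cells by 1.63 on the log2 scale (-1.63 ± 0.46, adjusted p = 0.0191). None of the 16 was called between null and WT cells in any of the 4 populations in the limma fit, although Spint1 was in basal cells.

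**Figure D2:**
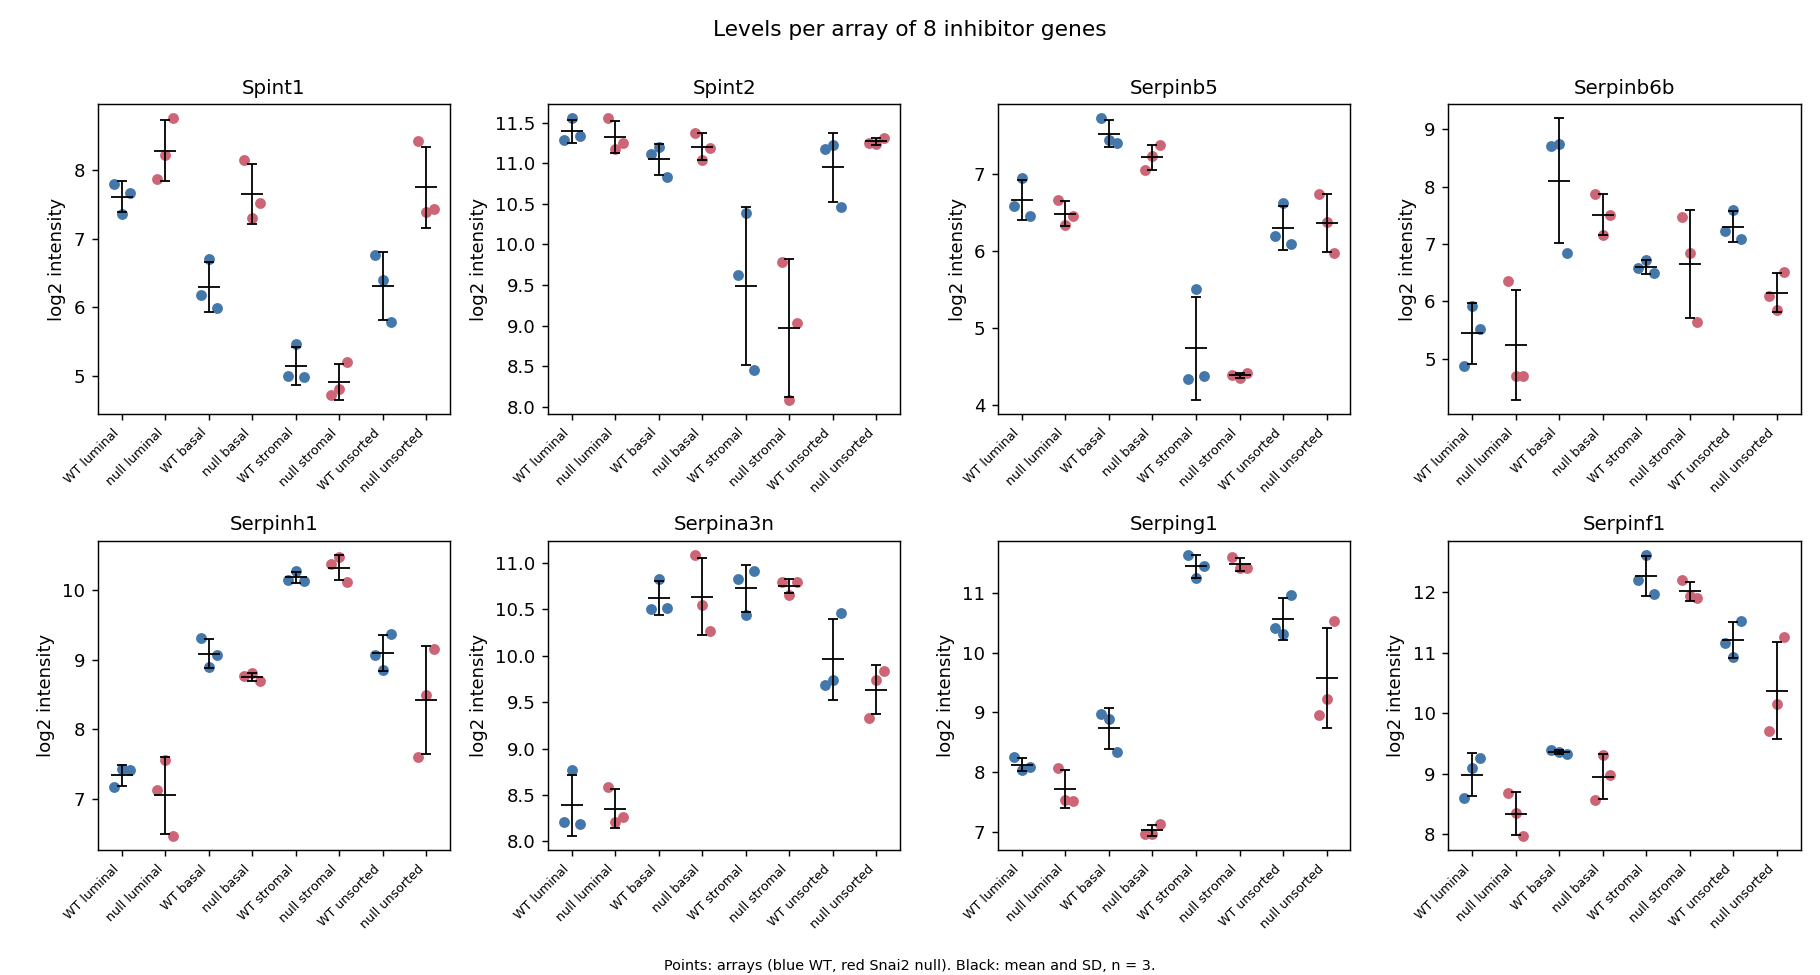
Levels of 8 inhibitor genes on each array (log2 intensity) by group, with points for arrays, blue for WT and red for Snai2 null, and black lines for the mean and SD of 3 arrays. Spint1 and Spint2 fall towards stromal cells, Serping1 and Serpinf1 rise there, and the null basal points stand apart from the WT basal points for Spint1 and Serping1.

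Among clade B serpins, which stay inside cells for the most part, Serpinb5 followed the epithelium. Serpinb5 encodes maspin, a serpin without protease inhibition that is known as a product of mammary myoepithelial cells. It lies first of 12 clade B genes that stand in a row on chromosome 1, ahead of Serpinb12, Serpinb13, the Serpinb3 genes, Serpinb11, Serpinb7, Serpinb2, Serpinb10 and Serpinb8. The windows before Serpinb5 (chr1:106860925-106861174), Serpinb11 (chr1:107362064-107362313), Serpinb2 (chr1:107511173-107511422) and Serpinb10 (chr1:107528753-107529002), all on the plus strand, are shown because these 4 genes of the row were called higher in basal than luminal cells of WT or null mice, with the same motif in capitals.
Serpinb5: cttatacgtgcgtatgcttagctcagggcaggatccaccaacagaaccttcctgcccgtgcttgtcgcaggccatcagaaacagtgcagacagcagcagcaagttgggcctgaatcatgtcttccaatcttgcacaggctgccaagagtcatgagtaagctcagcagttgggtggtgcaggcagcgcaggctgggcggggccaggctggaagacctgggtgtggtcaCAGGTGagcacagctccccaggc
Serpinb11: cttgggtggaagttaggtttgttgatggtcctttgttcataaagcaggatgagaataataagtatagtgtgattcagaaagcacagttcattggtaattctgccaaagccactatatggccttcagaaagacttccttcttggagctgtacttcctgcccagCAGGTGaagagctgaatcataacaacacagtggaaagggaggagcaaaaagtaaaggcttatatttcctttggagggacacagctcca
Serpinb2: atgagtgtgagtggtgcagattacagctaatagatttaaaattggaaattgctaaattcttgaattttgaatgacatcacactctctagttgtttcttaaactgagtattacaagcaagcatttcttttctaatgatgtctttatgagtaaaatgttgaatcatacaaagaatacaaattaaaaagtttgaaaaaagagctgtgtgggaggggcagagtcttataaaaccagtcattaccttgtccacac
Serpinb10: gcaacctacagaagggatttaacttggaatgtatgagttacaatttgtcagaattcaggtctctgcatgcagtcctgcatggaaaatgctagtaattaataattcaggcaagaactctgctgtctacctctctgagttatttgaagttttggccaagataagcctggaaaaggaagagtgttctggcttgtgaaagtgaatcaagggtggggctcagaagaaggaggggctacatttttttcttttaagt

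The Serpinb5 and Serpinb11 windows held 1 match each, 23 and 88 bases before the start, and the Serpinb2 and Serpinb10 windows held 0, as did the window of a second, overlapping Serpinb2 start. On the WT arrays Serpinb5 read 7.72, 7.45 and 7.41 in basal cells, 6.59, 6.95 and 6.46 in luminal cells and 4.34, 5.51 and 4.38 in stromal cells. All basal arrays lay above all luminal ones, and only replicate 2 of the stromal arrays had a detected signal. Basal cells were 0.86 ± 0.26 above luminal cells (adjusted p = 0.0302) and 2.78 ± 0.26 above stromal cells (adjusted p = 2.78e-07). The difference from luminal cells was lost on leaving out any of the 6 arrays but WT luminal replicate 2 (adjusted p from 0.0501 to 0.111), and that from stromal cells held without each array. In null mice the probe was detected on 0 of the stromal arrays, and Serpinb5 was at least 4.99-fold higher in basal and at least 3.00-fold higher in luminal cells (adjusted p = 1.1e-07 and 3.92e-06). Such a bound divides the mean of the brighter group by a floor for the dim one, which on each array is the larger of 2 values, the probe's own signal and the weakest signal of any detected probe. Null basal arrays read 7.05, 7.23 and 7.38 and null luminal arrays 6.66, 6.34 and 6.46, a difference of 0.73 ± 0.26 that did not pass in the unpaired fit (adjusted p = 0.0818).

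Serpinb11, Serpinb10 and Serpinb2, neighbours of Serpinb5 on chromosome 1, reached their highest levels on some of the basal arrays. Serpinb11 read 6.28, 8.15 and 8.03 on the null basal arrays, 5.26, 4.53 and 7.15 on the WT basal arrays and 4.55, 4.56 and 4.59 on the null luminal arrays, where it was not detected. Null basal cells were at least 6.08-fold above null luminal cells (adjusted p = 0.00178) and at least 6.01-fold above null stromal cells (adjusted p = 0.000947). In WT cells the basal arrays overlapped the luminal ones, and the change of 0.67 ± 0.59 did not pass. The Serpinb10 probe was detected on 3 arrays, 1 WT basal and 2 null basal. The gene thus entered the tests only through the population where it was high. Serpinb10 (4.61, 5.88 and 6.07 on the null basal arrays) was at least 1.55-fold above null luminal cells (adjusted p = 0.0144), a call lost without null basal replicate 2 (0.09) or replicate 3 (0.105). It was at least 1.54-fold above null stromal cells (adjusted p = 0.00689), a call lost without null basal replicate 3 (0.0593). Serpinb2, an inhibitor of urokinase also called PAI-2, read 4.38, 6.14 and 6.50 there and was at least 1.73-fold above null luminal cells (adjusted p = 0.0422), with replicate 1 at the level of the luminal arrays. Its call was lost without any 1 of the 6 arrays but null basal replicate 1 (adjusted p from 0.0864 to 0.251).

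The paralogs Serpinb6a and Serpinb6b, on chromosome 13, differed in where they were high, and cross-reaction between probes of such near copies makes their single values uncertain. Human SERPINB6 is an inhibitor of trypsin-like proteases and cathepsin G. Serpinb6b read 8.71, 8.75 and 6.84 in WT basal, 4.88, 5.93 and 5.53 in WT luminal and 6.58, 6.73 and 6.49 in WT stromal cells. It was highest in basal cells, with replicate 3 well below the other two, and the log2 change over luminal cells was 2.66 ± 0.50 (adjusted p = 0.000797) in WT and 2.26 ± 0.50 (adjusted p = 0.00409) in null mice. In null mice Serpinb6b was also lower in luminal than stromal cells (-1.40 ± 0.50, adjusted p = 0.0448), in groups that overlapped, a call lost without null luminal replicate 2 or 3 or null stromal replicate 1 or 2 (0.123 to 0.208). Serpinb6a was instead highest in stromal cells, at 10.9 ± 0.17 (SD, n = 3) against 9.57 ± 0.22 in basal and 8.90 ± 0.08 in luminal WT cells. Both steps from stromal cells passed (-1.33 ± 0.24 and -2.00 ± 0.24, adjusted p = 0.000314 and 2.95e-06). In null mice Serpinb6a was also 0.91 ± 0.24 higher in basal than luminal cells (adjusted p = 0.0137), a call lost without replicate 1 of either group (0.056 and 0.0569). Serpinb8, whose human counterpart inhibits furin, was also lower in WT basal and luminal than in stromal cells (-1.18 ± 0.37 and -1.37 ± 0.37, adjusted p = 0.0287 and 0.00852). The basal call for Serpinb8 was lost without WT basal replicate 1 or 2 or WT stromal replicate 1 or 3 (adjusted p from 0.0723 to 0.11), and the luminal one without WT luminal replicate 1 (0.0599). The basal over stromal difference of Serpinb6b in WT cells (2.83-fold, adjusted p = 0.0421) was lost without any of these 6 arrays but WT basal replicate 3 (0.0761 to 0.181).

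The secreted serpins Serpinf1 and Serping1 were higher in stromal than in epithelial cells. Serpinf1 encodes pigment epithelium-derived factor, which inhibits no protease and blocks vessel growth. It read 12.20, 12.62 and 11.97 in WT stromal cells against 9.40, 9.36 and 9.33 in WT basal and 8.59, 9.11 and 9.27 in WT luminal cells. Serping1, which encodes the C1 inhibitor of complement and kallikrein, read 11.64, 11.25 and 11.46 in WT stromal, 8.98, 8.89 and 8.34 in WT basal and 8.25, 8.04 and 8.09 in WT luminal cells. The stromal arrays stood at least 2 units above every epithelial one for both genes. The log2 change of basal against stromal cells was -2.90 ± 0.31 for Serpinf1 and -2.72 ± 0.30 for Serping1 (adjusted p = 1.2e-06 and 1.41e-06). That of luminal against stromal cells was -3.27 ± 0.31 and -3.33 ± 0.30 (adjusted p = 4.94e-07 and 2.61e-07). These differences held without each array in turn, as did those of null mice.

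Urokinase, which Serpinb2 inhibits, activates plasminogen, and genes of that system were followed as a list. Of 12 measured genes of plasminogen activation, 3 were higher and 0 lower in WT basal than luminal cells, where 7.48% of all genes were higher and 7.69% lower: F2r, the thrombin receptor (2.46 ± 0.43), Plau, urokinase (1.78 ± 0.44), and Lrp1, a receptor that clears complexes of inhibitor and protease (1.77 ± 0.35). Against stromal cells 5 of the 12 were lower in WT basal cells and 6 in WT luminal cells (9.63% and 12.2% of all genes).

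Serpinh1 and Serpina3n stood at a high level in stromal and basal cells and a lower one in luminal cells. Serpinh1 encodes HSP47, a chaperone of collagen in the endoplasmic reticulum and no protease inhibitor. It read 10.15, 10.27 and 10.13 in WT stromal, 9.31, 8.89 and 9.06 in WT basal and 7.17, 7.43 and 7.41 in WT luminal cells, 3 groups that did not overlap. Basal cells were 1.75 ± 0.30 above luminal cells (adjusted p = 0.000267) and below stromal cells (-1.09 ± 0.30, adjusted p = 0.0118). The step to stromal cells was lost without WT basal replicate 2 (0.0518). Of 15 measured genes of collagen biosynthesis 7 were higher and 1 lower in WT basal than luminal cells (7.48% and 7.69% of all genes). The largest were P4ha1, a prolyl hydroxylase, and Col4a1, a basement membrane collagen (2.01 ± 0.38 and 2.01 ± 0.23), then Plod2, a lysyl hydroxylase, and Col5a1 (1.79 ± 0.44 and 1.72 ± 0.48). The chains of fibrillar collagen Col1a1, Col1a2 and Col3a1 gave values between -0.27 and 0.04 in the same comparison.

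Serpina3n, whose product inhibits granzyme B and elastase, read 10.51, 10.83 and 10.52 in WT basal, 8.21, 8.76 and 8.18 in WT luminal and 10.83, 10.44 and 10.91 in WT stromal cells. Basal and stromal arrays overlapped, and luminal arrays stood below both. Basal cells were 2.23 ± 0.25 above luminal cells in WT and 2.29 ± 0.25 in null mice (adjusted p = 3.38e-06 and 3.02e-06), and both calls held under all 16 alternative settings. Its neighbours on chromosome 12 belong to a family of near copies, so that their probes may share signal. Serpina3g, which in the mouse inhibits cathepsins, was not detected in luminal cells of either genotype. It was at least 4.12-fold higher in WT stromal than luminal cells (adjusted p = 0.000694) and at least 3.63-fold higher in null mice (adjusted p = 0.00149). WT basal cells were lower than stromal cells for Serpina3g by 1.54 on the log2 scale (-1.54 ± 0.49, adjusted p = 0.0315), a call lost without WT basal replicate 1 or 3 or stromal replicate 2 or 3 (0.0513 to 0.131).

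Cst3 encodes cystatin C, the widespread secreted inhibitor of cathepsins. WT stromal arrays read 10.92, 10.52 and 11.20, basal arrays 10.15, 10.12 and 9.66 and luminal arrays 9.997, 9.32 and 10.18. Every stromal array was above every epithelial one. The log2 changes against stromal cells were -0.91 ± 0.26 in basal and -1.05 ± 0.26 in luminal cells (adjusted p = 0.0165 and 0.0045), and the basal call was lost without WT basal or stromal replicate 3 (0.0909 and 0.076). In null mice the changes were -1.41 ± 0.26 and -1.80 ± 0.26 (adjusted p = 0.00034 and 1.89e-05). Among 16 measured cysteine proteases, which include calpains and caspases beside cathepsins, 6 were lower in WT basal and 7 in WT luminal than in stromal cells and 0 higher (9.63% and 12.2% of all genes were lower, 8.52% and 12.4% higher). Between WT basal and luminal cells 1 of the 16 was called, Ctsh, an aminopeptidase cathepsin (-2.29 ± 0.16, adjusted p = 3.22e-08).

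Counted together, 5 of the 34 inhibitor genes were called between WT basal and luminal cells (4 higher, 1 lower), where 15.2% of all genes were (7.48% higher, 7.69% lower). Between WT basal and stromal cells 12 were called (4 higher, 8 lower; background 18.2%, 8.52% higher and 9.63% lower), and between WT luminal and stromal cells 14 (4 higher, 10 lower; background 24.6%, 12.4% higher and 12.2% lower). In null mice 7 of 34 were called between basal and luminal cells (all higher; background 11.3%, 6.07% higher and 5.25% lower), 14 between basal and stromal cells (5 higher, 9 lower; background 21.4%, 10.5% higher and 10.9% lower) and 16 between luminal and stromal cells (3 higher, 13 lower; background 25.5%, 12.8% higher and 12.7% lower). The 5 of 34 between the WT epithelial populations is near the background. The other WT calls against luminal cells were Serpina10, an inhibitor of coagulation factor Xa, at least 1.11-fold above stromal cells (adjusted p = 0.0127, lost without WT luminal replicate 1 at 0.084), and Serpina1b, which encodes an alpha-1 antitrypsin. Serpina1b was at least 1.88-fold higher in WT stromal cells (adjusted p = 0.0399). A second Serpina1b probe gave -0.09 ± 0.27, and the call was lost without WT stromal replicate 2 (0.215) or any of the luminal arrays (0.0806 to 0.0948). In null mice Serpina1b was at least 2.34-fold higher in stromal than basal cells (adjusted p = 0.00715) and lower in luminal than stromal cells (-1.57 ± 0.45, adjusted p = 0.0126). Both calls were lost without null stromal replicate 1 (0.0554 and 0.0845). The second probe gave -0.68 ± 0.27 for null basal and -0.58 ± 0.27 for null luminal over stromal cells. Neither passed when all probes were tested (adjusted p = 0.0781 and 0.129).

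The sample numbers paired the WT populations: the deviations of same-numbered WT arrays from their group means correlated above 0.1 for all 9 pairs. With the number as a replicate block, 8 of the 34 were called between WT basal and luminal cells in place of 5. The added genes were Serpina3h (2.39 ± 0.41, adjusted p = 0.000478), Serpinb9, an inhibitor of granzyme B (0.94 ± 0.32, adjusted p = 0.0486), and Serpina10 (-0.46 ± 0.16, adjusted p = 0.0493). Against stromal cells the block kept the 12 basal calls and made 15 luminal ones, the added gene being Serpina3h (-1.23 ± 0.41, adjusted p = 0.0311).

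WT and null mice used separate arrays, so their population differences could be set side by side. Between basal and luminal cells 3 genes were called with the same sign in both genotypes, Serpina3n, Serpinb6b and Serpinh1, which is 60% of the WT calls and 42.9% of the null calls (54.6% and 73.2% over all genes). Against stromal cells 9 were shared for basal cells (75% and 64.3%, against 73.7% and 62.5% over all genes) and 12 for luminal cells (85.7% and 75%, against 75.3% and 72.4%). The genes called in null mice alone included Serpina1a, another alpha-1 antitrypsin gene. It read 6.51, 5.72 and 6.38 in null stromal cells and was at least 2.38-fold higher there than in null basal cells (adjusted p = 0.000479) and 1.52 ± 0.31 higher on the log2 scale than in null luminal cells (-1.52 for luminal over stromal, adjusted p = 0.000755). On the WT stromal arrays Serpina1a read 4.65, 5.38 and 4.87, all lower than the null ones, but the change of 1.24 ± 0.31 between genotypes did not pass (adjusted p = 0.312). Serpina1a and Serpina1b are near copies, so that their probes may share signal and their calls may not be separate. Serpina1b read 6.985, 5.142 and 6.414 on the null stromal arrays.

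In null basal cells Serping1 fell and Spint1 rose, the only 2 of the 34 inhibitor genes called there, and 0.837% of all genes were called in that comparison (0.446% higher, 0.39% lower). The limma fit gave no call among the 34 between null and WT cells in the other populations. Serping1 read 6.97, 6.97 and 7.13 on the null basal arrays against 8.98, 8.89 and 8.34 on the WT basal arrays, and Spint1 read 8.14, 7.30 and 7.51 against 6.18, 6.71 and 5.996. The genotypes overlapped for neither gene. Serping1 changed by -1.72 ± 0.30 (adjusted p = 0.00488), which is 3.28-fold lower in null cells, and Spint1 by 1.36 ± 0.32 (adjusted p = 0.0464), 2.56-fold higher.

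Serping1 held its call without each of the 6 basal arrays in turn (adjusted p from 0.00331 to 0.0433), but not in a fit of the basal arrays alone (0.0574). For Spint1 the call was lost without any 1 of the 6 basal arrays: without WT basal replicate 1, 2 or 3 the adjusted p was 0.211, 0.0504 and 0.11, and without null basal replicate 1, 2 or 3 it was 0.179, 0.069 and 0.112. The Spint1 change stayed positive under all 16 alternatives, from 0.83 to 1.69. With median scaling in place of quantile normalization Spint1 changed by 1.11 (adjusted p = 0.351), which left 0 higher and 1 lower among the members.

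Mean levels of some marker lists of other cells also differed between WT and null basal cells, while few single markers were called. Lower in null basal cells were 0 of 10 fibroblast, 1 of 10 endothelial, 3 of 8 adipocyte and 2 of 7 Schwann cell markers. Of the 9 luminal markers 0 were called. Some markers went against their list, as Fbln2 of the fibroblast list (8.219 in WT, 8.765 in null) and Gata3 of the luminal list (7.345 and 6.694). Over 10 fibroblast markers the mean level was 7.55, 7.72 and 7.31 on the WT basal arrays and 6.55, 6.96 and 6.96 on the null basal arrays, so that the groups did not overlap, and the number of these markers detected on 0 arrays was 1 in WT and 2 in null basal cells. Over 10 endothelial markers it was 7.08, 6.44 and 5.39 against 4.97, 5.26 and 5.18, with 0 and 6 markers undetected, and over 8 adipocyte markers 7.43, 6.88 and 6.16 against 5.50, 5.74 and 5.99. The 9 luminal markers averaged 7.46, 7.86 and 7.55 in WT basal and 7.81, 8.51 and 8.44 in null basal cells, groups that overlapped. The 7 Schwann cell markers averaged 6.29, 6.695 and 6.77 in WT basal and 5.82, 5.92 and 5.86 in null basal cells. Serping1 is higher in stromal than basal cells and Spint1 higher in WT luminal than basal cells, as given above; the part of such cells in either change was not tested. Of 14 measured complement genes, the system that Serping1 restrains, C1ra and C4b were lower in null basal cells (-1.41 ± 0.29 and -1.95 ± 0.35, adjusted p = 0.021 and 0.00639) and Cd55, a surface inhibitor of complement, was higher (1.33 ± 0.30, adjusted p = 0.0358). Thbd, the thrombomodulin gene, was the 1 of 12 plasminogen-list genes called there (-1.71 ± 0.38, adjusted p = 0.0337).

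Between null and WT luminal cells 0 of the 34 passed (2 had an unadjusted p below 0.05), where 0.00797% of all genes did. Spint1 was 0.67 ± 0.32 higher there and Serping1 changed by -0.41 ± 0.30. The null effect in basal cells minus that in luminal cells was tested itself: 0 of 34 passed (2 at an unadjusted p below 0.05; background 0.167%, 0.143% higher and 0.0239% lower), with 0.69 ± 0.45 for Spint1, -1.30 ± 0.42 for Serping1 (adjusted p = 0.749) and 2.25 ± 0.83 for Serpinb11 (adjusted p = 0.952). In stromal cells 0 of 34 passed (3 at an unadjusted p below 0.05; background 0.0239%, 0.00797% higher and 0.0159% lower).

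In unsorted cells 0 of 34 passed in the limma fit (7 at an unadjusted p below 0.05), and 0.279% of all genes did (0.0398% higher, 0.239% lower). Spint1 read 8.42, 7.38 and 7.43 on the null and 6.76, 6.40 and 5.79 on the WT unsorted arrays, a change of 1.43 ± 0.32 that narrowly missed the threshold (adjusted p = 0.0618). Serpinb8, higher in WT stromal than epithelial cells, averaged 6.731 in WT and 7.265 in null unsorted cells. Some other stroma-high genes gave negative values, -0.99 ± 0.30 for Serping1, -0.97 ± 0.26 for Cst3 and -0.83 ± 0.31 for Serpinf1 (adjusted p = 0.186, 0.131 and 0.287). Null unsorted replicate 3 decided these calls: it was the highest null array for Serping1 (10.53 against 8.96 and 9.23), Serpinf1 (11.26 against 9.70 and 10.16) and Serpinh1 (9.16 against 7.61 and 8.49). Without it 6 genes passed. Spint1 rose (1.59 ± 0.36, adjusted p = 0.0136), and Serping1, Serpinf1, Cst3, Serpinb6a and Serpinh1 fell (-1.47, -1.28, -1.20, -1.11 and -1.04). The fibroblast list averaged 8.28 and 8.30 on null unsorted replicates 1 and 2 and 9.84 on replicate 3, against 9.40, 9.40 and 10.02 in WT. The luminal list averaged 9.87, 9.93 and 9.38 in null and 9.31, 9.25 and 8.62 in WT, and its part and that of the fibroblasts in these changes were not tested.

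**Figure D3:**
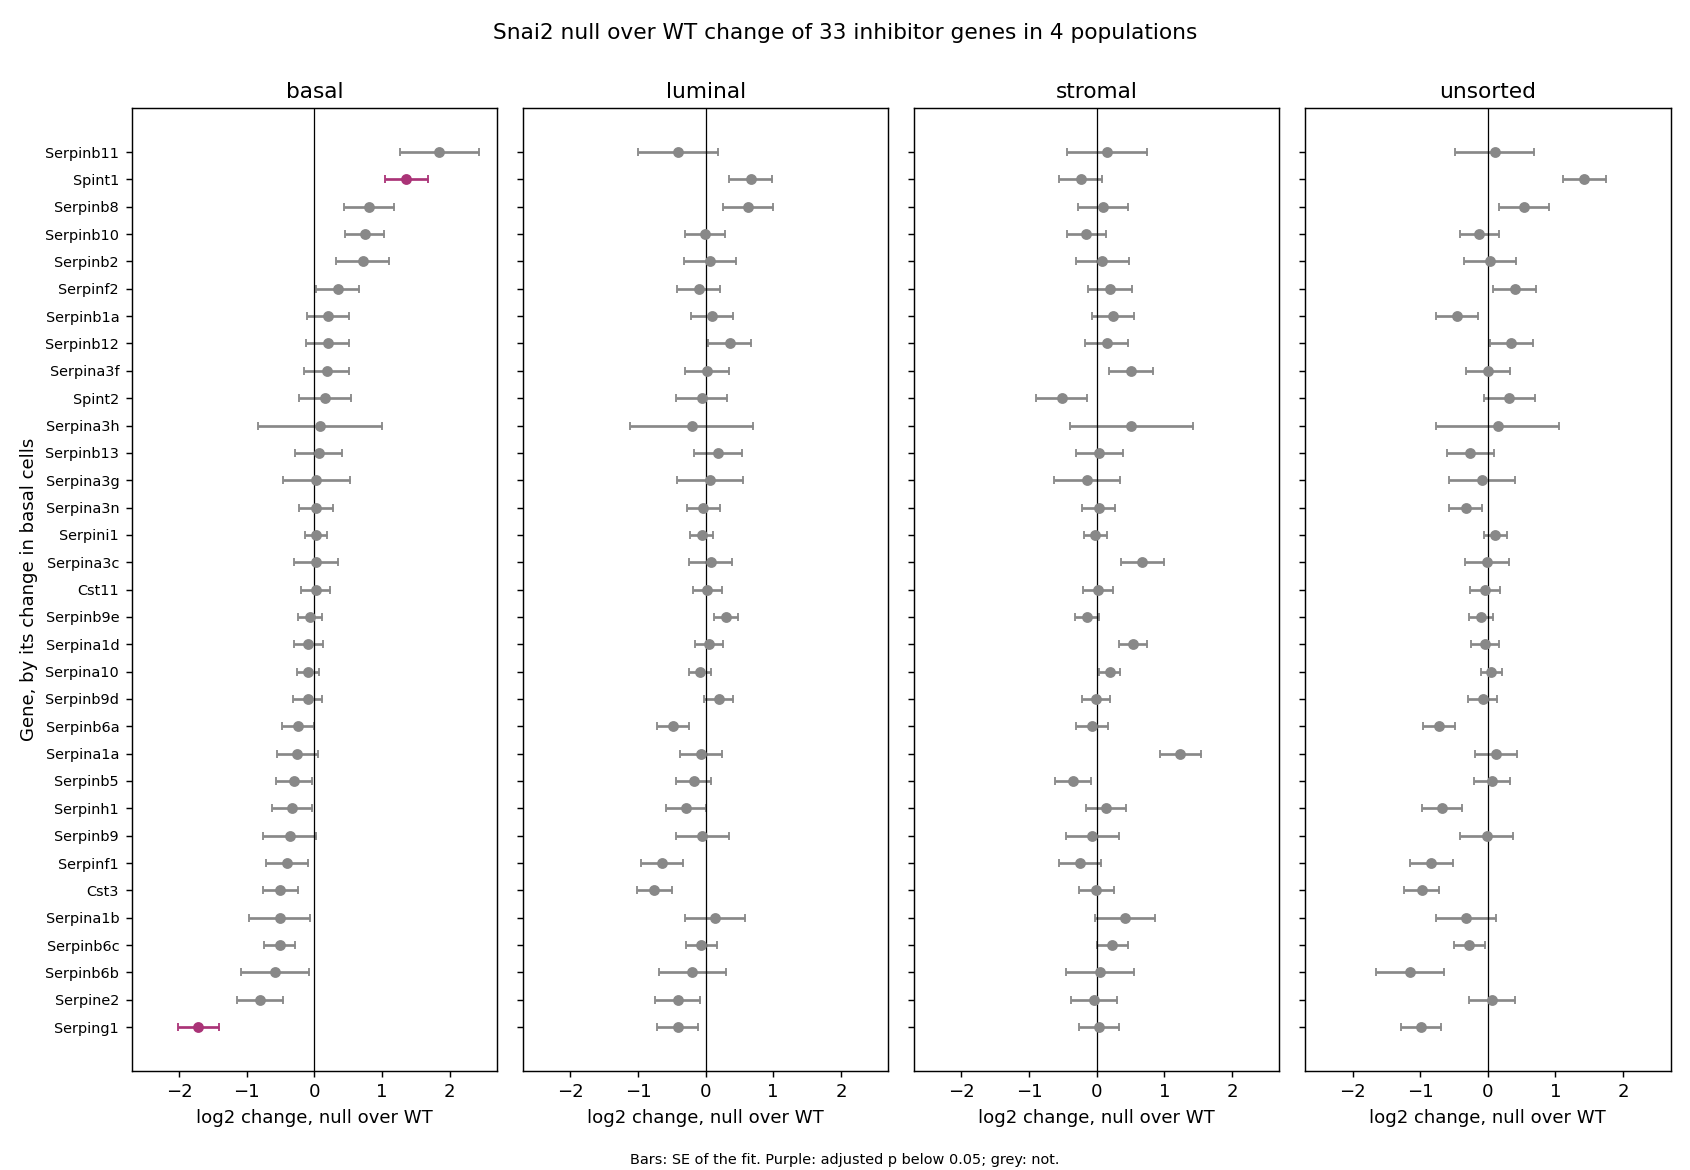
Log2 change of Snai2 null over WT cells for 33 tested inhibitor genes (rows, ordered by the change in basal cells) in the 4 populations; bars give the SE of the fit, and purple marks an adjusted p below 0.05. Only Serping1 (-1.72) and Spint1 (1.36), both in basal cells, are purple, and Serpinb11 (1.85) has the largest positive basal value with a wider bar.

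Some inhibitor genes, several of clade B among them, separated the basal arrays by the unlabelled split and not by genotype alone. They did so no more often than genes in general. On the 3 negative-side basal arrays (WT replicate 3, null replicates 2 and 3) 4 of the 34 genes, among them Serpinb11, Serpinb10 and Serpinb8, were higher than on the 3 positive-side ones, and 4, Serpina3g, Serpinb6a, Serpinb6b and Serpinb9, were lower. That is 4 of 34 each way, where 14.6% and 13.2% of all genes behave so, and the sides came from a component over all genes, so this is a description. Serpinb11 ranged from 7.15 to 8.15 on the negative side of the basal cells and from 4.53 to 6.28 on the positive side. Its null over WT change in basal cells was 1.85 ± 0.59 and did not pass (adjusted p = 0.226), but it passed without WT basal replicate 3 (2.60 ± 0.55, adjusted p = 0.0176). Without null basal replicate 1, Serpinb10 and Serpinb2 passed (1.20 ± 0.24 and 1.36 ± 0.29, adjusted p = 0.0205 and 0.033).

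**Figure D4:**
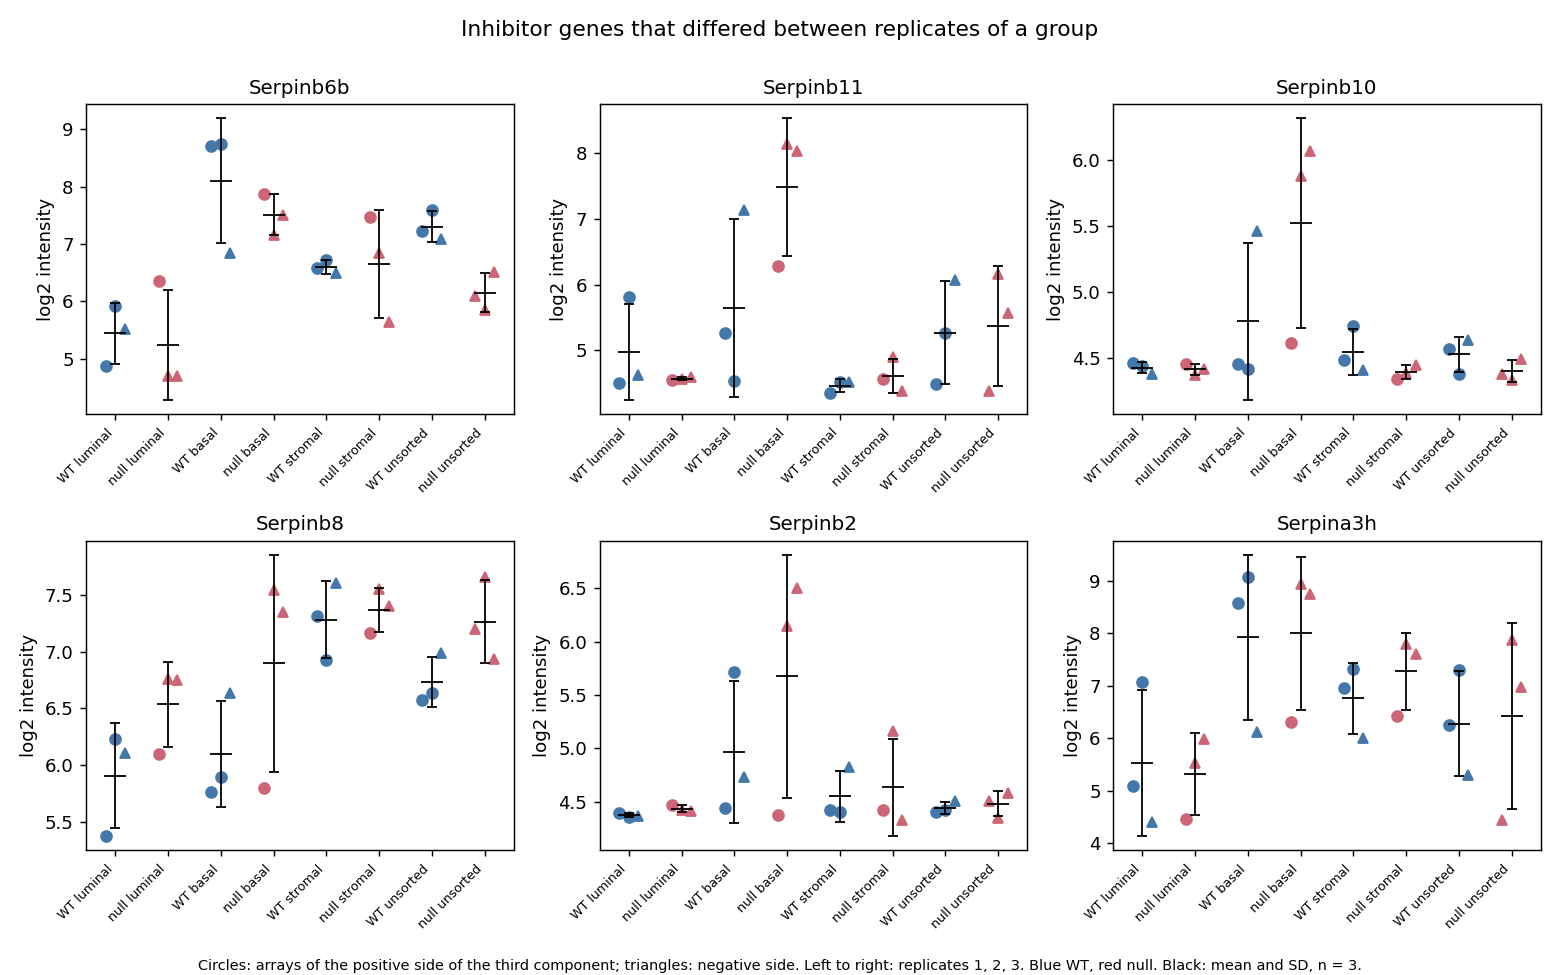
Levels on each array (log2 intensity) of 6 inhibitor genes whose replicates differ, by group; circles are arrays of the positive side of the third component and triangles those of the negative side, blue is WT and red is null, and black lines give the mean and SD of 3 arrays. For Serpinb11 the WT basal triangle (7.15) lies with the null basal triangles (8.15 and 8.03), and for Serpina3h WT replicate 3 and null replicate 1 are the lowest array of each group.

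The 13 tested genes called in none of the 11 comparisons of the unpaired fit were Cst11, Serpina1d, Serpina3h, Serpinb12, Serpinb13, Serpinb1a, Serpinb6c, Serpinb9, Serpinb9d, Serpinb9e, Serpine2, Serpinf2 and Serpini1. All but Cst11 and Serpina3h lay between 4.34 and 6.24 on every array, near the floor of the scale. They include the genes of protease nexin-1 (Serpine2), alpha-2-antiplasmin (Serpinf2) and neuroserpin (Serpini1). With the replicate block, Serpina3h and Serpinb9 were called in WT mice, as given above. Cst11, a cystatin known from the epididymis, lay between 6.26 and 7.45, and its group means spanned only 6.58 to 7.15. These values come from 1 probe, and a second Cst11 probe was detected on 0 arrays. Serpina3c and Serpina3f, of the same cluster as Serpina3n, were called in null mice only: Serpina3c was lower in luminal cells than in stromal cells by -0.99 ± 0.32, and Serpina3f was at least 1.56-fold higher in null stromal than luminal cells (adjusted p = 0.0263 and 0.0267). The Serpina3c groups overlapped, and that call was lost without null luminal replicate 2 or 3 or stromal replicate 2 (0.092 to 0.211). The Serpina3f call was lost without any of the null luminal arrays or stromal replicate 2 (0.0556 to 0.122). Serpina3c was also at least 1.67-fold higher in null stromal than basal cells (adjusted p = 0.0281), a call lost without null basal replicate 1 or 3 or stromal replicate 2 (0.0819 to 0.215).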

How the data were processed

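Total RNA from 24 samples was biotin-labelled and measured on Illumina bead arrays, per the labels' protocols. The deposited table used here holds probe intensity values that are not normalized, each paired with a detection p-value, per the file headers. The deposited second table, of intensity values with nearly equal array medians, was used only as an alternative. No source used here names the slides, so a slide block was not possible. Background was removed with neqc of limma 3.58.1 (R 4.3.3; normexp from detection p, offset 16, quantile normalization), and values are on the log2 scale. Probes detected (p below 0.05) on at least 3 arrays passed, 17878 in all, and the brightest passing probe stood for a gene. Symbols were brought up to date through RefSeq (GRCm38.p6): 20733 current, 3868 through a synonym, 1060 unmatched and 36 turned into a date or number and left out. A linear model with a mean for each group took in all 24 arrays (lmFit and eBayes), p-values were adjusted by Benjamini-Hochberg over all 12549 genes, two-sided, and a call needs an adjusted p below 0.05. The number of arrays limits precision: the median SE was 0.301. Errors are SE for changes and SD for levels.

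The genes described, the lists of partner genes and the markers were chosen with earlier results of these data known. Values of 1 tested member, which enters the counts, are not reported here. Named are the other tested members, and from the partner lists those called between genotypes plus up to 4 per list between WT basal and luminal cells. St14 and the fibrillar collagens were added after their values were seen. WT arrays of the sorted populations that carry the same number deviated together (correlations from 0.189 to 0.416 in 9 pairs) and were taken as paired from these correlations, since no label says what a number marks. Null arrays (6 of 9 pairs above 0.1) and WT against null (7 of 12) were not. The alternatives were the second table, median scaling, no filter, the mean of passing probes, only the arrays compared, array weights, the replicate block, the split as a block, each side alone and leaving out each array.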

Additional observations from a re-analysis of the deposited data

How the results depend on the processing

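Of 70 called gene values, 30 kept their call in every alternative run, and of 1120 alternative values 964 kept the call, 155 lost it in the same direction and 1 reversed: Serpinb2 between null basal and luminal cells, -0.0932 on the positive-side arrays alone, where each of these groups has 1 array. A fit on 1 side sets 1 or 2 arrays of a group against 1 or 2 and takes a lone array to vary like the other groups, so its lost calls say little about stability. Between null and WT basal cells the 2 called members became 1 with the second deposited table, with median scaling, with no filter and on the positive side alone, 0 on the negative side alone and in a fit of the arrays compared only, and 6 with array weights (Serpinb10, Serpinb11, Serpinb2 and Serpinb8 added). In unsorted cells 0 became 1 with the mean of passing probes and 3 with array weights. For WT basal and luminal cells 5 became 9 with array weights, 8 with the replicate block and 1 on the negative side; for WT basal and stromal cells 12 became 7 in the fit of the arrays compared only and 4 on the negative side. For null basal and luminal cells 7 became 13 with array weights, 11 with the replicate block and 2 on the positive side. The fits on fewer arrays have fewer samples; for the others the cause was not tested. Same-numbered null arrays correlated at 0.0927 to 0.351, with 3 of 9 pairs under 0.1, and matched their own number best in 13 of 18 cases (18 of 18 in WT), so the null block is given only here. Between null basal and luminal cells it added Serpina3h (2.68 ± 0.41, adjusted p = 0.000218), Serpinb5 (0.73 ± 0.23, 0.0418) and Serpina10 (-0.49 ± 0.16, 0.0489) among others, and between null luminal and stromal cells Serpina3h, Serpinb1a and Serpinb8 (adjusted p = 0.00144, 0.0242 and 0.0354). The block moved no other count of calls by over 1.5 times.

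Leaving out 1 array at a time gave 1 to 3 calls between null and WT in basal cells, 0 in luminal and stromal cells and 0 to 6 in unsorted cells. It gave 4 to 6 for WT basal and luminal cells, 7 to 11 for WT basal and stromal, 11 to 14 for WT luminal and stromal, 5 to 7 for null basal and luminal, 12 to 14 for null basal and stromal, 13 to 16 for null luminal and stromal cells, and 0 for the difference of the null effects. Median scaling moved the median of all genes by over 0.1 only in unsorted cells (0.166). The positive side could not be fitted for unsorted cells, since it held 0 null unsorted arrays. Probes not above background limit 33 genes to no value, and bounds stand for folds against undetected groups.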

Other observations

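Serpina3h, a member of the Serpina3 family on chromosome 12, varied more between replicates than between most groups, a pattern noticed after its values were seen. WT basal cells read 8.57, 9.07 and 6.13 and null basal cells 6.32, 8.94 and 8.75. WT luminal cells read 5.10, 7.08 and 4.41, null luminal cells 4.45, 5.53 and 5.98, WT stromal cells 6.96, 7.32 and 6.01 and null stromal cells 6.43, 7.79 and 7.61. Unsorted WT arrays read 6.25, 7.30 and 5.30 and unsorted null arrays 4.44, 7.87 and 6.98. WT replicate 3 and null replicate 1 were thus the lowest array of their group in all 4 populations. The order was read from Serpina3h itself, which is therefore the 1 of the 34 inhibitor genes that has it. Over all 12549 genes 5 had this order (0.0398%), which is a description and no test. Probes of near copies may share signal, and no cause was tested.

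Between WT and null unsorted cells the mast cell protease gene Tpsab1, from a list of leukocyte proteases, was lower in null cells (-1.63 ± 0.23, adjusted p = 0.00118). It was the 1 of 7 measured genes of that list called. Other mast cell genes gave -2.08 ± 0.61 (Cpa3), -1.54 ± 0.41 (Tpsb2) and -0.97 ± 0.27 (Mcpt4) and did not pass (adjusted p = 0.176, 0.134 and 0.142). The 8 measured neutrophil and mast cell markers, which include these 3, averaged 6.72, 6.42 and 5.73 on the WT and 5.66, 5.33 and 5.91 on the null unsorted arrays, with 2 of them detected on 0 arrays in each group, and their part in the Tpsab1 change was not tested. The complement genes C1qa, C1qb and C1qc were lower too (-2.08, -2.09 and -2.17, adjusted p = 0.00176, 0.0202 and 0.000367). The 9 macrophage markers, which include these 3 genes, averaged 8.57, 8.04 and 7.56 on the WT and 5.24, 5.62 and 7.01 on the null unsorted arrays.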
